A study of Mus musculus with 5 samples.

Results

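Mrc1 Folr2 macrophages of mouse synovial sarcoma (SyS) were taken from single cell RNA-seq of 5 tumours and compared with macrophages of the same tumours that lacked the genes used to choose them. Of 51670 cell barcodes, 42516 had 750 genes or more detected and no more than 25% of their UMIs (unique molecular identifiers, each a captured RNA molecule) from mitochondria, and these were kept. A kept cell was called a macrophage when it held at least 4 of the 6 transcripts C1qa, C1qb, C1qc, Csf1r, Ms4a7 and Adgre1, fewer than 5 UMIs of the SyS cell gene Adgrb3 and none of the endothelial gene Cdh5, and at most 1 UMI summed over the cycle genes Mki67, Top2a, Birc5, Ube2c and Cdk1. This left 2933 macrophages. The Mrc1 Folr2 macrophages were chosen by their own UMI counts: the 1253, 42.7% of all, with at least 3 UMIs summed over Mrc1, Folr2, Lyve1 and Cd163. Another 747 held none of these 4 genes and are called gate-negative macrophages, and 933 held 1 or 2 UMIs.

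All tumours arose in hSS2 mice, which carry the human SS18::SSX2 fusion in Rosa26 behind a stop cassette that TATCre protein, given to pups by injection in a limb, cut out, and they were harvested at morbidity. Histology in the labels was biphasic (BP, with epithelial glands among spindle cells, 2 tumours), monophasic (MP, spindle cells, 1 tumour), mixed MP+BP (1 tumour) and poorly differentiated with monophasic areas (PD+MP, 1 tumour). There was no tumour-free tissue among these samples, the animals were of mixed strain, single cells were freed with red cells lysed, and whether both BP tumours came from 1 animal was not stated. Values for single tumours are given below in the order BP replicate 1, BP replicate 2, MP, MP+BP and PD+MP, whose Mrc1 Folr2 macrophages numbered 273, 306, 146, 219 and 309.

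Macrophages in solid tumours derive from circulating monocytes and from macrophages that were settled in the tissue before. Mrc1 encodes the mannose receptor, an endocytic lectin, and Folr2 encodes folate receptor beta. Together with Lyve1, a hyaluronan receptor, and Cd163, the receptor for haemoglobin bound to haptoglobin, they are widely used as markers of perivascular and interstitial macrophages of healthy tissues, which clear debris and recycle iron, whereas high MHC class II, Ccr2 and Ly6c2 are associated with recent descent from monocytes.

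The cells met the definition chiefly through Mrc1. Mrc1 was detected in 97.8%, 99.0%, 99.3%, 100% and 91.9% of the Mrc1 Folr2 macrophages of the 5 tumours and made up 79.1% of the 9002 UMIs of the 4 genes. Folr2 was detected in 39.6%, 32.7%, 50.7%, 35.6% and 54.7%. Cd163 was detected in 3.30%, 0.327%, 11.6%, 6.85% and 20.7%, and Lyve1 in 24 of 1253 cells (1.92%), 15 of them from PD+MP. PD+MP thus had the lowest share with Mrc1 and the highest shares with the other 3 genes. In all, 494 cells (39.4%) held both Mrc1 and Folr2, 733 held 1 of the 4 genes only, and 35 held no Mrc1. In SyS cells (Adgrb3 of at least 5 UMIs, a type that should lack these genes, with median depths of 9851 to 12930 UMIs against 4843 to 7469 in the Mrc1 Folr2 macrophages) Mrc1 was detected in 0.770% to 3.50%, Folr2 in 0.426% to 0.743%, Cd163 in 0.0447% to 0.248% and Lyve1 in 0% to 0.171% of cells. Beside this background, the Cd163 share of BP replicate 2, 1 cell of 306, is not read as expression. Lyve1 and Cd163 were not detected in most of these cells at this depth, and the cells are called by their leading genes here and not by origin.

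**Figure D1:**
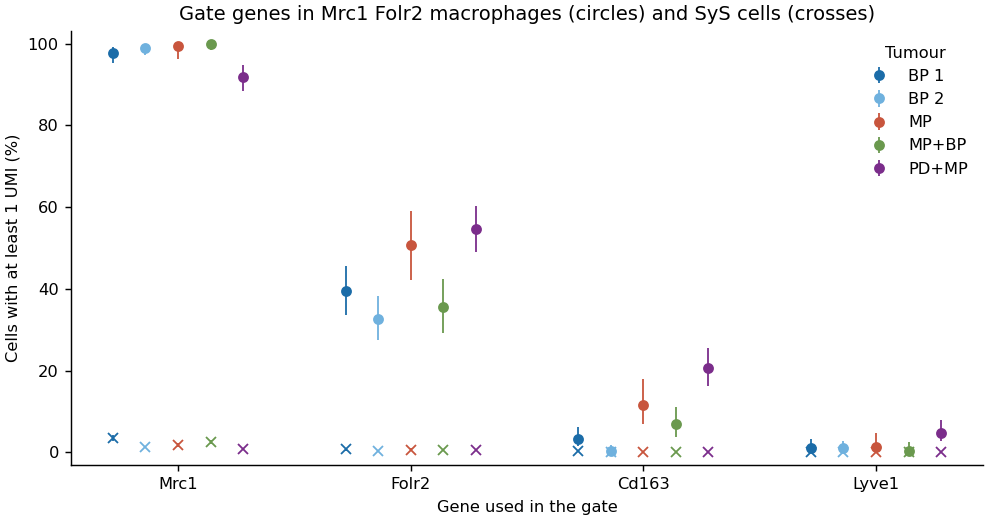
Percentage of cells with at least 1 UMI of each of the 4 genes used in the definition, in the Mrc1 Folr2 macrophages (circles) and in SyS cells (crosses) of each tumour, with exact 95% binomial intervals that cover counting error only. Mrc1 lies above 90% in every tumour, Folr2 between 32.7% and 54.7%, and Lyve1 below 5%.

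Just outside the limit lay 399 macrophages with 2 UMIs and just inside it 312 with 3 UMIs. The C1q genes that helped define a macrophage were near saturation on both sides. C1qa, a subunit of the complement starter C1q, was detected in 99.5% of Mrc1 Folr2 macrophages and 97.6% of gate-negative ones. Csf1r, the receptor for the macrophage growth factor CSF1, was detected in 88.6% and 71.9%, and Adgre1, which encodes F4/80, in 89.7% and 72.4%. These values describe the choice of cells and were not tested.

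Cell quality differed between both sides. Mrc1 Folr2 macrophages had median depths of 4843 to 7469 UMIs per tumour, and gate-negative macrophages 3615 to 5058, the lower value in each of the 5 tumours. The median ribosomal share was 8.53% to 12.3% in Mrc1 Folr2 and 9.97% to 17.5% in gate-negative macrophages, higher in the latter in each tumour, and the median mitochondrial share was 3.07% to 4.92% and 2.34% to 4.58%, lower in the latter in each tumour. Scrublet, a doublet caller, scored the kept cells. The top 5.35% to 8.27% per tumour, a share fixed beforehand by cell number, were counted as doublets. They took in 1.31% to 2.91% of Mrc1 Folr2 macrophages and 4.12% to 6% of gate-negative ones. Pairs of libraries shared 15 to 33 barcodes. Markers of other cell types stood in the Mrc1 Folr2 macrophages at 0 to 6.01 CPM (UMIs scaled to a common library total) summed over 9 T and NK cell markers, 12.8 to 36.5 over 8 dendritic cell markers, 58.9 to 192 over 10 stromal markers and 138 to 245 over 12 SyS cell markers. The gate-negative macrophages held 1.25 to 17, 16.2 to 82.2, 130 to 609 and 164 to 411 CPM of the same lists. For endothelial markers the ranges were 72.2 to 148 and 105 to 171 CPM, for neutrophil markers 49.4 to 87.2 and 52.0 to 103.2, for B cell markers 10.3 to 18.4 and 10.1 to 18.6, and for muscle markers 1.77 to 6.01 and 5.03 to 22.7. Erythroid markers reached 252 CPM in BP replicate 1 against 125 on its gate-negative side, and mast cell markers 140 CPM in MP+BP against 179, with at most 65.7 and 29.3 CPM in the Mrc1 Folr2 macrophages of the other tumours. The part of these differences in the results below was not tested beyond the alternatives named there.

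For 4 genes on which the results turn, picked after their values were seen, the 250 bases before the annotated start are shown 5′ to 3′ on the gene's strand (RefSeq, GRCm38.p6). They are Mrc1 itself (chr2:14229164-14229413, plus strand), Ccl8 (chr11:82114935-82115184, plus strand), Cbr2 (chr11:120732022-120732271, minus strand) and Ednrb (chr14:103843702-103843951, minus strand). Capitals mark GAGGAA or its reverse complement TTCCTC, a core bound by the myeloid factor PU.1, and TGCTGA or TCAGCA, a half-site of MAF factors, sought on both strands.
Mrc1: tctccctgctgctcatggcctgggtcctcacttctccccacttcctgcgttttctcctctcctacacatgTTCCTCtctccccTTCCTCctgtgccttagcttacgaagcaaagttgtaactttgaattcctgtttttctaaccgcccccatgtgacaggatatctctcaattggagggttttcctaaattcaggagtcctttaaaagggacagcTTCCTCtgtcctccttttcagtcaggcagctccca
Ccl8: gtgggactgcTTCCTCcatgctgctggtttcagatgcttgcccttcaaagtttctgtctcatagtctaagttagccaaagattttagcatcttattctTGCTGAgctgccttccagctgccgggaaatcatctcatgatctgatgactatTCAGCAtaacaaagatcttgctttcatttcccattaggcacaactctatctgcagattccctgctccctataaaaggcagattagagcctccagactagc
Cbr2: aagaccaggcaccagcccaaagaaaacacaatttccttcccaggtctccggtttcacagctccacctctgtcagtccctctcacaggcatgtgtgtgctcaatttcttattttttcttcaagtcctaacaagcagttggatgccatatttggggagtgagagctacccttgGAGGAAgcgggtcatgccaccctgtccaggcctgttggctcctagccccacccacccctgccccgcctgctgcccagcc
Ednrb: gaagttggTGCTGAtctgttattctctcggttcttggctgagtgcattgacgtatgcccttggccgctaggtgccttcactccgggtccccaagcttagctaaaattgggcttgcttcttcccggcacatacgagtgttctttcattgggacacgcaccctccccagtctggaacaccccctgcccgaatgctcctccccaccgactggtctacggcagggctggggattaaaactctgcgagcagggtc
The PU.1 core occurred 3 times before Mrc1 and 1 time each before Ccl8 and Cbr2, and in 23.3% of all 32851 windows of this length. The MAF half-site occurred 2 times before Ccl8 and 1 time before Ednrb, and in 16.1% of all windows. Such matches are descriptions of the letters and not of binding.

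Which genes accompany Mrc1 and Folr2 was asked by summing the UMIs of each side per tumour and testing 8051 genes with the tumour as a block (edgeR's quasi-likelihood test, with p adjusted after Benjamini and Hochberg and called under 0.05). The genes used to choose cells were left out. Higher in the Mrc1 Folr2 macrophages were 479 genes (5.95% of those tested), and lower were 596 (7.4%), with a median log2 fold change over all genes of -0.01. With the libraries scaled by their totals alone the split was 677 higher and 380 lower, that is 64.0% of calls higher in place of 44.6%, and the median of all genes stood at 0.08. Called or not, 165 genes with a higher level (2.05% of those tested) and 114 with a lower one (1.42%) had sums that did not overlap between both sides. Among the called genes this held for 134 of 479 higher and 83 of 596 lower. With cells matched for UMI number within each tumour, 339 genes were higher and 409 lower. Leaving out BP replicate 1 left 282 higher and 399 lower, and leaving out MP+BP left 386 lower.

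**Figure D2:**
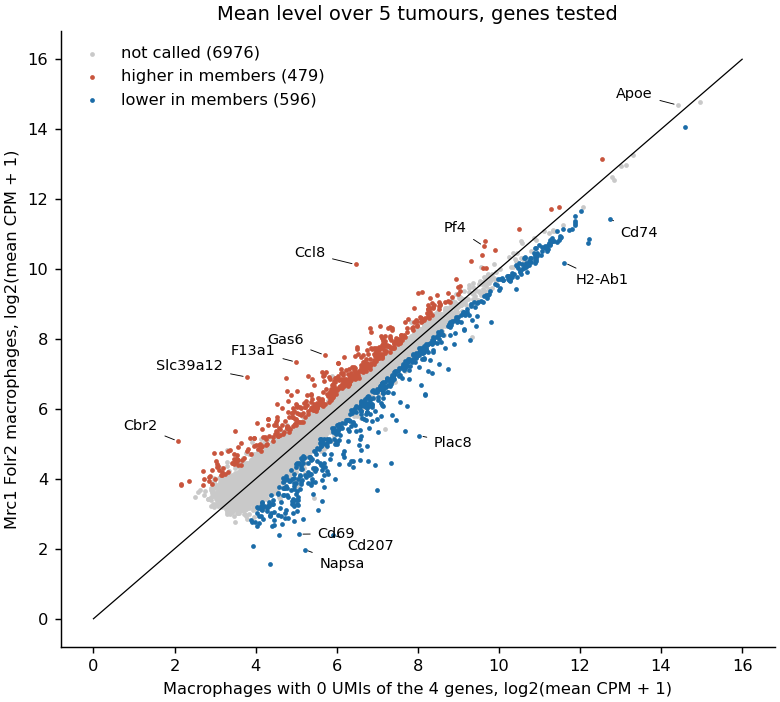
Mean level over the 5 tumours, log2(mean CPM + 1), of the 8051 genes tested in Mrc1 Folr2 macrophages (vertical) and gate-negative macrophages (horizontal), with the line of equal level. The 479 genes called higher (red) lie above the line with Ccl8, Slc39a12 and Cbr2 farthest, and the 596 called lower (blue) lie below it with Cd207 and Napsa among the farthest.

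Ccl8, which encodes a chemokine that draws monocytes and T cells, had the largest fitted increase of the 8051 genes tested. It stood at 521, 543, 130.2, 1361 and 3044 CPM (scaled by edgeR's TMM factors, as are all CPM of these comparisons) in Mrc1 Folr2 macrophages and at 40.7, 153, 25.1, 181 and 36.5 CPM in gate-negative macrophages (log2 fold change 3.43 ± 0.44 (SE), adjusted p = 0.000204). It was higher in 5 of 5 tumours, though MP's 130 CPM lay below the gate-negative values of BP replicate 2 and MP+BP. Other cells of these tumours, with at most 1 of the 6 macrophage genes, held 1.13 CPM.

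Chemokine genes were divided. Of 16 tested of 23 listed, 5 rose and 3 fell, beside the 5.95% higher and 7.4% lower of all genes tested, which are the background of every list count below, with a median of 0.36 against -0.01 over all genes. Pf4, platelet factor 4, rose from 540.2, 304, 675, 519 and 1899.9 to 1097, 426, 1946, 1576 and 3030.1 CPM (log2 fold change 1.05 ± 0.14 (SE), adjusted p = 0.00035), and Ccl3 by 0.62 ± 0.12. Ccl5, a T cell chemoattractant named after its values were seen, fell by 3.48 on the log2 scale (adjusted p = 0.000111) and was lower in 4 of 5 tumours. Ccl2 and Ccl7, attractants of Ccr2-bearing monocytes, were not called (log2 fold changes 0.71 ± 0.41 and 1.03 ± 0.36, adjusted p = 0.303 and 0.075). Both were lower in the Mrc1 Folr2 macrophages of PD+MP (371 against 1213 and 287 against 569 CPM) and higher in those of the other 4 tumours, and without PD+MP both were called higher, by 1.38 and 1.66. Both passed the threshold in other alternatives too, Ccl7 among them with cells matched for UMI number (1.25, adjusted p = 0.0319).

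Genes described for long-lived tissue macrophages were higher. Of 28 such genes besides those that chose the cells, 14 passed the filter on low counts and 13 of these rose, with a median log2 fold change of 1.24. The filter can be passed through the Mrc1 Folr2 side alone, so this count is a description. Of the 14 that were not tested, 12 had a higher CPM in the pooled Mrc1 Folr2 macrophages and 2, Timd4 and Mgl2, a lower one. The summed level of all 28 was 5634, 5030, 5839, 6110 and 10319 CPM against 2701, 3221, 1941, 1976 and 4491 CPM before TMM scaling, lower in each tumour's gate-negative macrophages.

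Cbr2, a carbonyl reductase, stood at 35.5, 16.2, 39.2, 21.5 and 51.7 CPM against 5.55, 3.87, 0, 2.79 and 3.91 (log2 fold change 3.01 ± 0.33 (SE), adjusted p = 7.2e-05), with no overlap. F13a1, the A chain of coagulation factor XIII, stood at 184, 85.8, 77.6, 116 and 342 CPM against 81.4, 5.8, 3.14, 2.79 and 61.3 (log2 fold change 2.31 ± 0.29 (SE), adjusted p = 0.000191). BP replicate 1 and PD+MP had the highest F13a1 on both sides, so its values overlapped. Gas6, the bridging ligand by which dying cells are bound to MERTK and AXL, stood at 192, 147, 203, 132 and 249 CPM against 55.5, 80.3, 37.7, 25.1 and 57.4 (log2 fold change 1.75 ± 0.18 (SE), adjusted p = 5.6e-05), with no overlap.

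Ltc4s, leukotriene C4 synthase, rose from 18.5, 39.6, 34.5, 16.7 and 32.6 to 62.4, 71.9, 119, 60.1 and 105 CPM (log2 fold change 1.49 ± 0.17 (SE), adjusted p = 0.000103), again without overlap. Maf, a transcription factor of macrophage identity, rose by 0.99 ± 0.12 (adjusted p = 0.000138). Igf1, insulin-like growth factor 1, rose by 0.90 ± 0.18 (adjusted p = 0.0041), a call that was lost with cells matched for UMI number (0.59, adjusted p = 0.0536). Its values were 332, 289, 355, 145 and 412 CPM against 259, 234, 129, 36.2 and 164 CPM, and SyS cells held 214 CPM.

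Cd209f, a lectin of the same family as DC-SIGN, had 324 UMIs in the pooled Mrc1 Folr2 macrophages and none in 3610103 UMIs of gate-negative ones, at least 45.8-fold higher when 3 counts over the group are taken as the limit. PD+MP held 167 of these UMIs, and without it the bound was 23.8-fold. It did not pass the filter. Timd4, the phosphatidylserine receptor that marks many embryonically derived macrophages, had 18 UMIs against 10, in all 5 tumours together, and was near the limit of detection on both sides.

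Receptors and ligands for the uptake of debris formed the next group. Of 26 listed genes 17 were tested, and 10 rose and 2 fell (median 0.51). Stab1, a scavenger receptor, stood at 305, 335, 334, 343 and 341 CPM against 132, 224, 78.5, 92 and 139.5 (log2 fold change 1.29 ± 0.16 (SE), adjusted p = 0.000191). Mertk, which binds Gas6, stood at 155, 213, 226, 162 and 325 CPM against 59.2, 119, 47.1, 75.3 and 143 (log2 fold change 1.25 ± 0.14 (SE), adjusted p = 0.000103). For Stab1 and Mertk, as for Gas6, no gate-negative sum reached the lowest Mrc1 Folr2 sum. Fcgr4, an activating receptor for IgG, fell by 0.79 on the log2 scale (adjusted p = 0.00394), a call that was lost with cells matched for UMI number (-0.43, adjusted p = 0.194).

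In iron handling, 13 of 16 genes were tested, and 4 rose and 1 fell (median 0.50). Slc40a1, ferroportin, the exporter of iron, stood at 297, 203, 254, 201 and 619 CPM against 143, 117, 28.3, 27.9 and 244 (log2 fold change 1.44 ± 0.22 (SE), adjusted p = 0.00059). Fth1, the heavy chain of the iron store ferritin, fell by 0.53 on the log2 scale (adjusted p = 0.00203). Hmox1, which opens haem, was not called (log2 fold change 0.77 ± 0.31 (SE), adjusted p = 0.12), with values of 1811, 223, 1174, 754 and 1416 against 1372, 219, 163, 237 and 1754 CPM. Without PD+MP it was called higher (1.09, adjusted p = 0.034). Hmox1 also passed in other alternatives, among them a limit of 5 UMIs of the 4 genes (1.02, adjusted p = 0.0306).

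Genes of lipid handling and lysosomes were divided. Of 24 listed 22 were tested, and 6 rose and 3 fell (median 0.24). Abca1, a cholesterol exporter, rose by 0.94 ± 0.13 (adjusted p = 0.000382) and Ctsd, the lysosomal protease cathepsin D, by 0.75 ± 0.14 (adjusted p = 0.00262), but Ctsd by 0.31 (adjusted p = 0.0906) with cells thinned to 3000 UMIs before being placed. Thinning served only to place cells. Cells under 3000 UMIs were left out, and the counts compared were not thinned. Its side with 0 also took in cells that held UMIs of the 4 genes, with 238 cells in BP replicate 1 against 142 gate-negative ones of that depth. Lgals3, galectin 3, fell by 0.62 on the log2 scale (adjusted p = 0.0019). Of genes that mark lipid-associated tumour macrophages, 4 were not called. Trem2 had a log2 fold change of 0.27 ± 0.11 (adjusted p = 0.117), Spp1 0.26 ± 0.20 (0.455), Gpnmb 0.10 ± 0.31 (0.889) and Apoe 0.33 ± 0.11 (0.0674). Apoe passed the threshold in 7 alternatives, among them cells matched for UMI number (0.59, adjusted p = 0.00662), and Trem2 in 3, among them leaving out BP replicate 2 (0.40, adjusted p = 0.035). Spp1 differed more among tumours, 2172, 279, 1585, 553 and 3952 CPM in Mrc1 Folr2 macrophages, than between both sides.

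Several increases lay outside these groups. Slc39a12, a zinc transporter, stood at 127, 92.5, 85.6, 252 and 40.3 CPM against 13.9, 19.3, 12.6, 13.9 and 3.91 (log2 fold change 3.02 ± 0.21 (SE), adjusted p = 1.7e-06), with no overlap and the lowest value of both sides in PD+MP. Npl, an enzyme that breaks down sialic acid, rose from 18.5, 26.1, 18.8, 13.9 and 53.5 to 76.8, 60.2, 96.3, 55.8 and 162 CPM (log2 fold change 1.72 ± 0.17 (SE), adjusted p = 4.4e-05). Nxpe5 and Ifitm10 rose by 1.97 ± 0.28 and 1.61 ± 0.25. Atp6v0d2, a subunit of the proton pump of lysosomes, rose by 1.91 ± 0.32 (adjusted p = 0.00129), but by 0.18 (adjusted p = 0.767) with cells placed after thinning, as described for Ctsd.

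Among secreted factors, 23 of 29 genes were tested, and 7 rose and 5 fell (median 0.32). Pdgfc, a growth factor for mesenchymal cells, stood at 76, 129, 83.8, 155 and 141 CPM against 21.3, 60, 3.14, 22.3 and 22.2 (log2 fold change 2.00 ± 0.24 (SE), adjusted p = 0.000138), with no overlap. Vegfa, the main angiogenic factor, fell by 1.12 on the log2 scale (adjusted p = 0.0011), and Tgfbi by 1.28 (adjusted p = 0.000838). Of 18 complement genes 9 were tested, and 1 rose and 1 fell (median 0.09).

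Of 31 transcription factors 29 were tested, and 8 rose and 4 fell (median 0.19). Besides Maf, Tfec, a relative of MITF, rose by 1.02 ± 0.20, and the inhibitors of differentiation Id1 and Id3 fell by 1.18 and 0.85 on the log2 scale (adjusted p = 0.00394, 0.00256 and 0.00357). Tfec missed the threshold with cells matched for UMI number (adjusted p = 0.0579), and Id1 and Id3 did when cells with stromal or SyS markers were left out (adjusted p = 0.12 and 0.113). Of 25 receptor genes 21 were tested, and 4 rose and 1 fell (median 0.02). P2ry12, a nucleotide receptor best known from microglia, stood at 35.9, 39, 49, 32.6 and 71.4 CPM against 17.6, 27.1, 9.42, 22.3 and 27.4 (log2 fold change 1.05 ± 0.21 (SE), adjusted p = 0.00391), and Ccr1 rose by 0.86 ± 0.18 (adjusted p = 0.00507). Cx3cr1, the fractalkine receptor, was not called (log2 fold change 0.28 ± 0.12 (SE), adjusted p = 0.151).

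**Figure D3:**
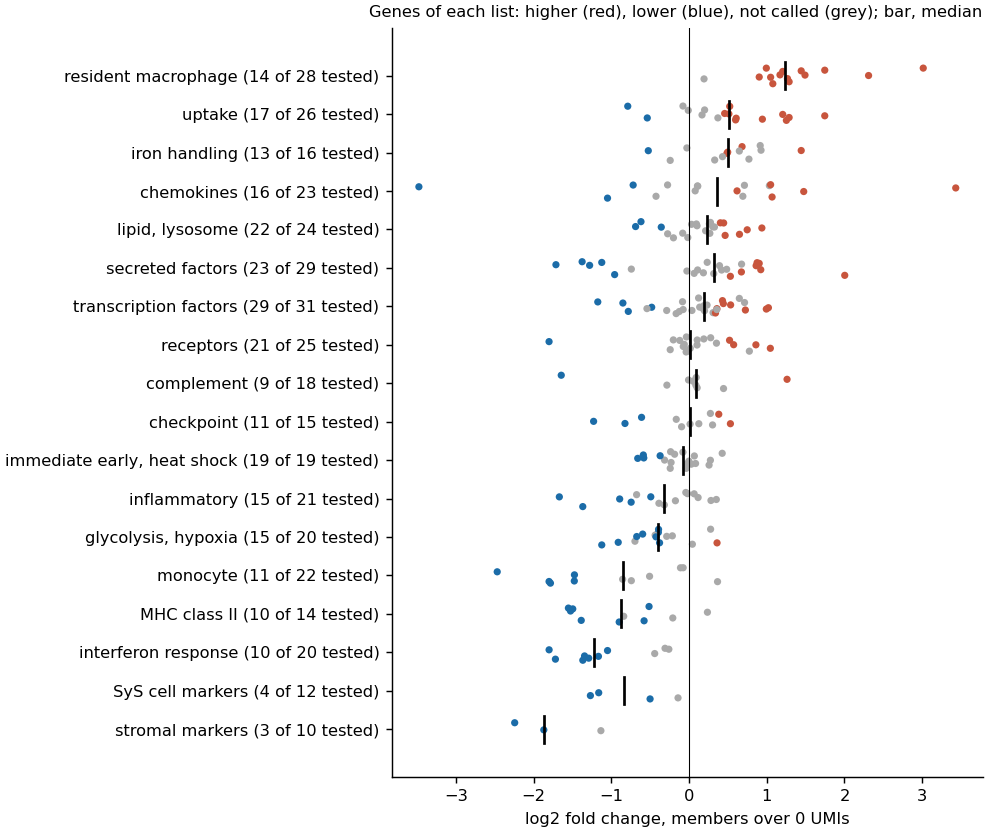
Log2 fold change of Mrc1 Folr2 macrophages over gate-negative macrophages for the genes of 18 lists that passed the filter on low counts, 1 point per gene, red for called higher, blue for called lower and grey for not called, with the median of each list as a bar. The resident macrophage list has 13 of 14 points called higher, and the MHC class II and interferon lists have 7 of 10 called lower each.

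RNA of genes for antigen presentation by MHC class II was mostly lower in the Mrc1 Folr2 macrophages. Of 14 listed genes 10 were tested, and 7 fell and none rose (median -0.87). H2-Ab1, a class II beta chain, stood at 725, 1468, 586, 2663 and 368 CPM against 1694, 2830.3, 3789, 6217 and 1145 (log2 fold change -1.53 ± 0.18 (SE), adjusted p = 0.000138). Cd74, the invariant chain, stood at 2059.8, 3497, 1393, 6152 and 750.5 CPM against 4413, 6849, 7783, 12939 and 1953 (log2 fold change -1.39 ± 0.17 (SE), adjusted p = 0.000158). H2-Eb1 and H2-Aa had log2 fold changes of -1.55 ± 0.19 and -1.50 ± 0.17. Each was lower in 5 of 5 tumours, but tumours differed as much as the sides, and the Mrc1 Folr2 macrophages of MP+BP held more H2-Ab1 than the gate-negative macrophages of BP replicate 1 and PD+MP.

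Cd207, the lectin langerin, had the largest decrease of the 8051 genes tested, 3.3, 1.67, 9.81, 6.01 and 0.42 CPM against 41.6, 30, 100.5, 119.9 and 2.61 (log2 fold change -3.74 ± 0.26 (SE), adjusted p = 1.7e-06). Napsa, an aspartic protease, fell by 3.30, Cd69, an early activation receptor, by 2.69, Stat4 by 2.32 and Itgax, which encodes CD11c, by 1.65 on the log2 scale (adjusted p = 0.000419, 0.000266, 0.000358 and 7.2e-05). The summed dendritic cell markers were 12.8, 20.7, 32.0, 20.1 and 36.5 CPM against 72.3, 22.6, 82.2, 47.8 and 16.2 CPM, higher in the gate-negative macrophages of 4 of 5 tumours. Flt3, which defines most dendritic cells, had 1 and 5 UMIs, Ccr7 had 3 and 31, and none of the 8 markers passed the filter. In pooled CPM, 5 of the 8 were lower in the Mrc1 Folr2 macrophages and 3 higher. With all cells left out that held any of 7 dendritic cell markers, 402 genes were higher and 478 lower. Napsa fell below the filter there and gave no value. Cd207 and Napsa also gave no value with cells matched for UMI number or thinned before being placed. The same held when cells with stromal or SyS markers were left out, and Cd207 gave none without MP. Their decreases could thus not be checked in those alternatives.

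Monocyte genes were tested for 11 of 22 listed, and 5 fell and none rose (median -0.86). Ccr2, the receptor by which monocytes are recruited, stood at 19, 0, 1.78, 11.2 and 22.7 CPM against 32.4, 6.77, 59.6, 16.7 and 92.6 (log2 fold change -1.80 ± 0.39 (SE), adjusted p = 0.00662), lower in 5 of 5 tumours and near 0 in BP replicate 2. Plac8 stood at 9.09, 10.6, 5.35, 2.58 and 155 CPM against 24.1, 3.87, 81.6, 41.8 and 1161 (log2 fold change -2.47 ± 0.38 (SE), adjusted p = 0.000702). Its level was highest on both sides in PD+MP, and BP replicate 2 had the opposite direction. Without PD+MP both calls were lost (-1.70, adjusted p = 0.0554, and -1.85, adjusted p = 0.0524), as they were with DESeq2 (adjusted p = 0.0533 and 0.0554), and Ccr2 was -0.92 (adjusted p = 0.0969) with cells placed after thinning. S100a4 and Thbs1 fell by 1.78 and 1.48 on the log2 scale (adjusted p = 0.00123 and 0.00104). Ly6c2, which marks classical monocytes, did not pass the filter. It had 2.48, 0, 0, 0 and 73.5 CPM against 8.33, 0, 6.28, 11.2 and 855 CPM.

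Inflammatory genes were tested for 15 of 21, and 5 fell and none rose (median -0.32). Il1b, the cytokine interleukin 1 beta, stood at 351, 688, 311, 298 and 156 CPM against 602, 1102, 1199, 1073 and 509 (log2 fold change -1.37 ± 0.17 (SE), adjusted p = 0.000171). Clec4e, a receptor for damaged cells, fell by 1.67 and Cd14, a co-receptor for bacterial lipid, by 0.75 on the log2 scale (adjusted p = 0.00211 and 0.000843). Of 20 interferon-response genes 10 were tested, and 7 fell (median -1.23). Irf7 stood at 17.3, 3.34, 4.46, 5.15 and 105 CPM against 25.9, 8.7, 22, 94.8 and 326 (log2 fold change -1.72 ± 0.30 (SE), adjusted p = 0.00169). The 19 interferon genes with a feature summed to 1149, 850.1, 855, 629.7 and 2005 CPM against 1039, 862, 774, 2326 and 4860 CPM, so the gap lay in MP+BP and PD+MP.

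Glycolysis and hypoxia genes were tested for 15 of 20, and 8 fell and 1 rose (median -0.40), among them Eno1 (-0.67, adjusted p = 0.002) and Mif (-0.60, adjusted p = 0.00263). Of 19 immediate early and heat-shock genes, which respond to dissociation, 4 fell and none rose (median -0.08). Of the 4, Dusp1, Btg2 and Socs3 lost their calls with cells matched for UMI number (adjusted p = 0.12, 0.0845 and 0.528). Hspe1 lost its call with DESeq2 (adjusted p = 0.0651). Among checkpoint genes, 11 of 15 were tested. Cd274, which encodes PD-L1, stood at 16.5, 7.24, 17.8, 26.6 and 31.5 CPM against 32.4, 18.4, 31.4, 72.5 and 83.5 (log2 fold change -1.23 ± 0.18 (SE), adjusted p = 0.000509), Havcr2, which encodes TIM-3, fell by 0.83 (adjusted p = 0.00505), and Entpd1, the ectonucleotidase CD39, rose by 0.53 ± 0.12 (adjusted p = 0.00669). Arg1, arginase 1, was not called (log2 fold change 1.00 ± 0.36 (SE), adjusted p = 0.0893) and varied from 0.557 to 301 CPM among the Mrc1 Folr2 sums.

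A further 5 of the decreases named were in genes that other cells of these tumours held at a higher level. Prrx1 and Ebf2, transcription factors of mesenchymal cells, stood at 7.02, 11.7, 6.24, 5.15 and 8.4 against 30.5, 132, 25.1, 22.3 and 18.3 CPM (log2 fold change -2.39 ± 0.30 (SE), adjusted p = 0.00019) and at 4.96, 2.23, 3.57, 8.59 and 2.1 against 19.4, 38.7, 22, 16.7 and 17 CPM (log2 fold change -2.50 ± 0.37 (SE), adjusted p = 0.000534). Cald1, an actin-binding gene, Rbms3, an RNA-binding gene, and Pard3, a cell polarity gene, had log2 fold changes of -2.21 ± 0.25, -2.18 ± 0.32 and -2.11 ± 0.37. For all 5 the level in the other cells of the tumours, 73.6 to 299.9 CPM, exceeded the mean of both macrophage sides. Of 10 stromal markers 3 were tested and 2 fell. The 10 summed to 95.6, 192, 114, 114 and 58.9 CPM in Mrc1 Folr2 macrophages and to 130, 345, 609, 453 and 609 CPM in gate-negative ones. SyS markers summed to 138, 208, 190, 150 and 245 CPM and to 411, 371, 184, 164 and 319 CPM. When cells with any UMI of Adgrb3, Col1a1, Col1a2 or Col3a1 were left out of both sides, these 5 no longer passed the filter, while 402 genes were higher and 540 lower. The part of RNA from other cells in these 5 decreases was not tested further. Over all genes, the level in other cells exceeded both macrophage sides for 54 of 479 higher genes (11.3%), 333 of 596 lower genes (55.9%) and 4729 of 8051 tested (58.7%).

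Along the number of UMIs of the 4 genes, few named genes changed stepwise. Of 28 named genes called higher, 4 rose at each step in all 5 tumours and 13 in at least 4, and of 52 called lower, 1 fell at each step in all 5 and 6 in at least 4. Ccl8, in CPM of total UMIs, was 42.4, 113, 272 and 881 in BP replicate 1 at 0, 1 to 2, 3 to 5 and at least 6 UMIs, and 34.9, 267, 863 and 4916 in PD+MP. It increased at each step in all 5 tumours, as Slc39a12, Maf and Abca1 did, while Gas6 did in 4, with 97.8 CPM at 1 to 2 and 85.8 at 3 to 5 UMIs in MP+BP. F13a1 did in 2, with 84.8, 50.9, 106 and 299.5 CPM in BP replicate 1, and Atp6v0d2 fell in the top bin of 3 tumours, with 7.71, 25.5, 55.3 and 16.9 CPM in BP replicate 1. H2-Ab1 decreased at each step in 4 tumours and in PD+MP was 353 and 395 CPM in the upper bins. Deeper cells hold more UMIs of any gene, so the bins differ in depth as well, and no test was made.

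**Figure D4:**
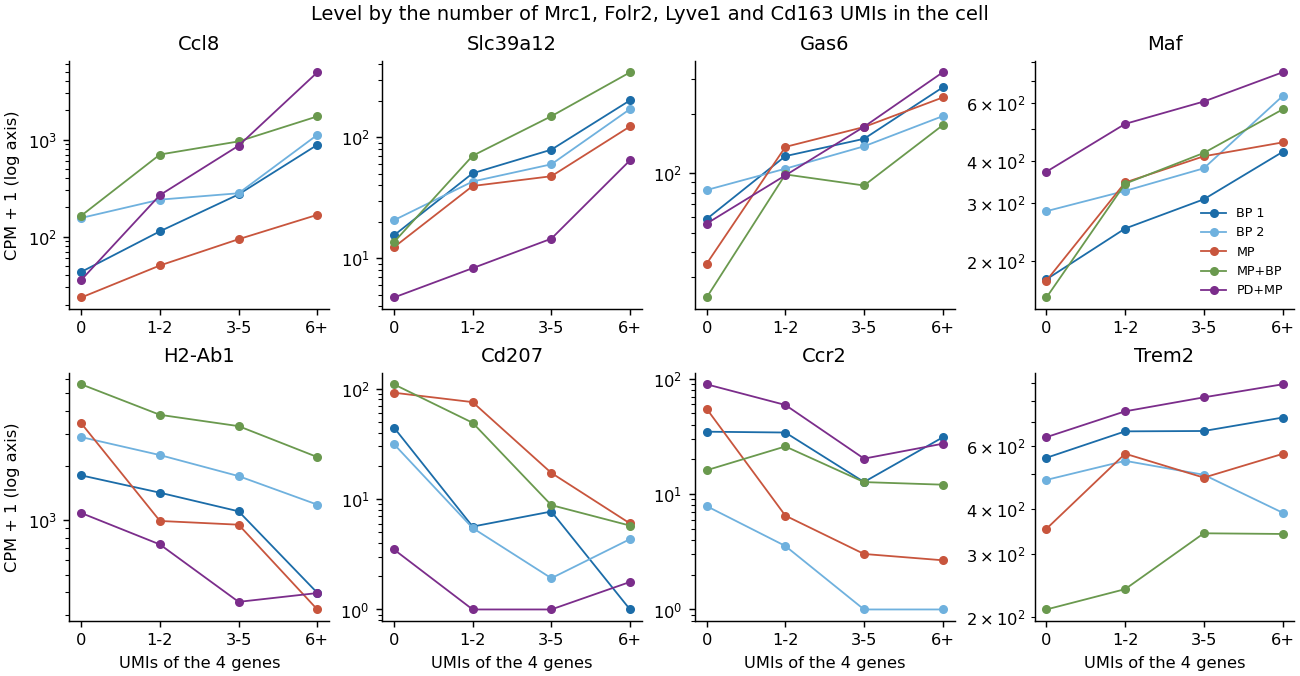
Level (CPM + 1, log axis) of 8 genes in macrophages with 0, 1 to 2, 3 to 5 and at least 6 UMIs summed over Mrc1, Folr2, Lyve1 and Cd163, 1 line per tumour. Ccl8, Slc39a12 and Maf climb at each step in all 5 tumours, H2-Ab1 and Cd207 decline from the first to the last bin, and Trem2 has no common course.

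How the Mrc1 Folr2 macrophages vary among themselves was examined with Folr2. Among the 1080 with at least 3 Mrc1 UMIs, 358 held Folr2 and 722 did not. This split was chosen after the values were seen, because the Lyve1 split first intended had 1 to 15 Lyve1 cells per tumour. Of 7052 genes tested with the tumour as a block, 46 were higher in the cells with Folr2 (0.652%) and 22 lower (0.312%), 0.964% in either direction. The median depth was higher in the cells with Folr2 in 5 of 5 tumours (5090 to 8690 against 4743 to 7165 UMIs), and cells matched for UMI number gave 26 higher and 11 lower. BP replicate 1 weighed most, with 7 higher and 1 lower without it. Without MP+BP 77 were higher, without PD+MP 23, and without BP replicate 2 or MP 11 and 13 were lower.

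Of the 28 genes described for long-lived tissue macrophages, 19 passed the filter and 12 were higher and none lower (median 0.81 against 0.00 over all genes). As above, a gene can pass through the side where it is high, so this count is a description. Ednrb, the endothelin receptor B, stood at 69.6, 27.5, 4.58, 20.5 and 358 CPM with Folr2 and at 7.63, 0.913, 1.99, 11.2 and 20 CPM without it (log2 fold change 3.41 ± 0.36 (SE), adjusted p = 4.8e-05). Both Ednrb values of MP, from sums of 452043 and 506828 UMIs, were near the limit of detection. F13a1 stood at 355, 271, 165, 316 and 816 CPM against 93.1, 31, 19.9, 29.3 and 123 (log2 fold change 2.71 ± 0.18 (SE), adjusted p = 1.4e-07), and C4b, complement component 4, at 38.2, 66.5, 16, 105 and 224 CPM against 5.34, 7.3, 3.98, 15.4 and 16 (log2 fold change 3.19 ± 0.24 (SE), adjusted p = 6.4e-07). F13a1 did not overlap between both sides, while C4b met at 16 CPM, in MP with Folr2 and in PD+MP without it. PD+MP had the highest Ednrb, F13a1 and C4b.

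Clec10a, a lectin for galactose sugars, stood at 24.6, 25.2, 16, 38 and 390.5 CPM against 3.82, 6.39, 1.99, 18.2 and 11 (log2 fold change 3.27 ± 0.45 (SE), adjusted p = 0.00102), and Cd209f at 81.9, 18.4, 27.5, 105 and 205 CPM against 0.763, 0, 0, 51.7 and 8.99 (log2 fold change 3.27 ± 0.49 (SE), adjusted p = 0.0023). In MP+BP, unlike the other tumours, Cd209f was plentiful without Folr2 too, and its call was lost without BP replicate 1 (2.85, adjusted p = 0.0694). Cbr2 rose by 2.96 ± 0.38 with Folr2 (adjusted p = 0.000525), without overlap.

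Chemokines rose in 5 of 15 tested genes, beside 0.652% of all genes tested. Ccl8 stood at 1231, 1356, 181, 2784 and 7798 CPM against 115, 286, 97.5, 664 and 669 (log2 fold change 2.57 ± 0.25 (SE), adjusted p = 2.7e-05), and Ccl2 at 721, 762, 749, 626 and 457 CPM against 353, 236, 426, 388 and 181 (log2 fold change 1.11 ± 0.13 (SE), adjusted p = 0.000222), with no overlap. Ccl7 rose by 1.49 ± 0.22 (adjusted p = 0.0023), and its call was lost without BP replicate 1 (1.58, adjusted p = 0.0523). These genes lie near each other on chromosome 11 and are similar in sequence. Whether any reads were assigned to the wrong gene among them was not tested.

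MHC class II fell in 5 of 9 tested genes, beside 0.312% of all (median -0.70). H2-Eb1 stood at 287, 776, 474, 3182 and 602 CPM with Folr2 and 1339.8, 2780.4, 1433, 5021 and 712 CPM without it (log2 fold change -1.30 ± 0.21 (SE), adjusted p = 0.00409). PD+MP differed least. Without BP replicate 1 no class II gene named here was called (H2-Eb1 -1.07, adjusted p = 0.0813). Rgs1, a brake on chemokine receptor signals, fell by 0.89 on the log2 scale and was lower in 5 of 5 tumours (adjusted p = 0.000222), and the kinase gene Map4k3 fell by 0.91 without overlap (adjusted p = 0.00548, and 0.0809 without BP replicate 1). Isg15, an interferon-response gene, was higher with Folr2 (1.29 ± 0.22, adjusted p = 0.00621), although it was lower in Mrc1 Folr2 than in gate-negative macrophages (-1.17 ± 0.33, adjusted p = 0.031). The first call was lost without BP replicate 1 or PD+MP (1.36 and 1.09, adjusted p = 0.0832 and 0.0615), and the second without MP, MP+BP or PD+MP (-0.69, adjusted p = 0.304, without PD+MP). The second was also lost with DESeq2 (-1.05, adjusted p = 0.335), with cells matched for UMI number (-0.93, adjusted p = 0.0816) and in further alternatives.

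**Figure D5:**
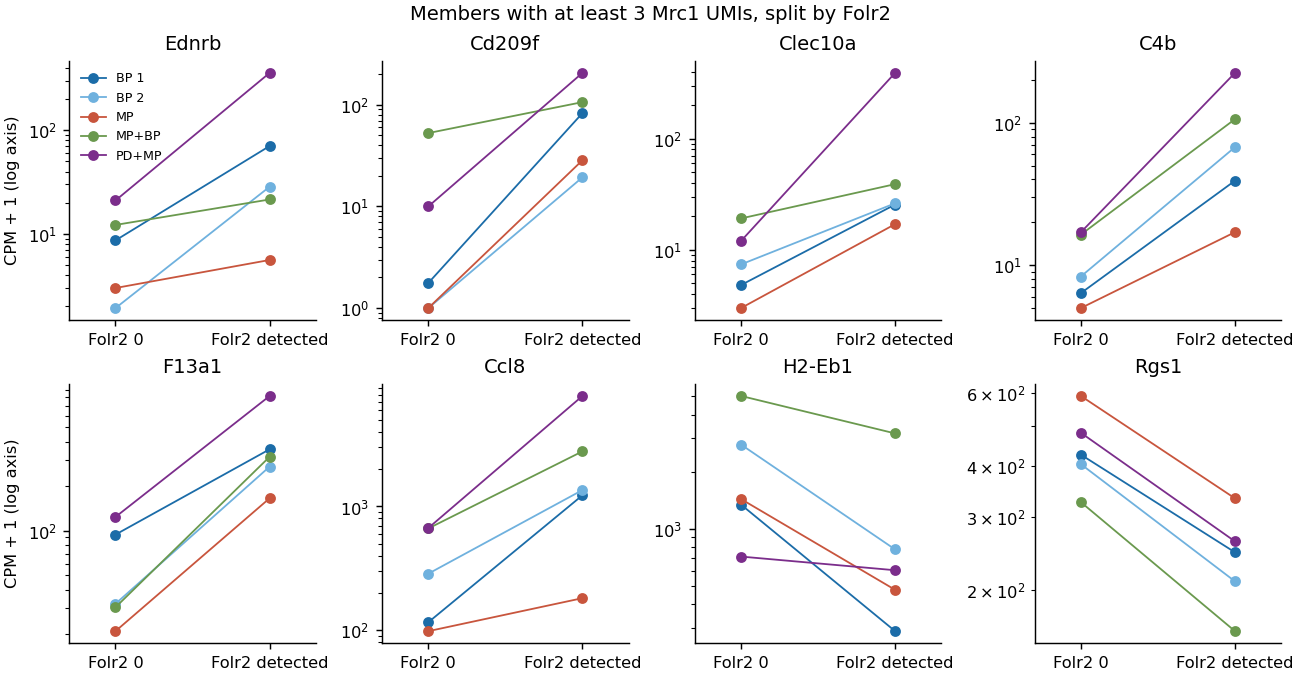
Level (CPM + 1, log axis) of 8 genes in Mrc1 Folr2 macrophages with at least 3 Mrc1 UMIs, without (left) and with (right) Folr2, 1 line per tumour. Ednrb, Cd209f, Clec10a, C4b, F13a1 and Ccl8 are higher with Folr2 in 5 of 5 tumours, and H2-Eb1 and Rgs1 are lower in 5 of 5. Ednrb in MP is near the limit of detection.

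Across the histology labels, the Mrc1 Folr2 macrophages made up 40.4%, 34.5%, 51.8%, 49.0% and 48.1% of macrophages, and 4.08%, 2.96%, 1.89%, 2.35% and 3.65% of kept cells. The share of macrophages was 41.3% ± 7.27 (SD, n = 3) in tumours with BP in the label and 49.95% ± 2.58 (SD, n = 2) in the others, a difference of -8.65 percentage points that was not called (exact permutation test, two-sided, p = 0.4). With 3 against 2 tumours this test cannot fall below 0.05. After each cell was thinned to 3000 UMIs, which left out shallower cells, the shares were 17.9%, 22.6%, 21.7%, 42.1% and 29.1%, and MP moved from the highest to the second lowest.

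Expression in the Mrc1 Folr2 macrophages was not called different by label for any of 9765 genes (0%, edgeR's quasi-likelihood test, smallest adjusted p = 0.0927), with 523 higher and 504 lower in the tumours with BP at an unadjusted p under 0.05. DESeq2 called 14 higher and 3 lower, and without MP, when the side without BP is PD+MP alone and is assumed to vary like the other, 26 were higher and 48 lower. For no gene of 8051 was a dependence of the difference between both macrophage sides on the label called by the same test (0%, smallest adjusted p = 0.126, with 259 and 301 genes at an unadjusted p under 0.05), and DESeq2 called none. Without MP+BP 38 and 39 genes were called, and without PD+MP 3 and 0. PD+MP was also the only tumour with Uty, a Y-linked gene, at 107 CPM in Mrc1 Folr2 macrophages, and it held no Xist. The other 4 held Xist at 1350.1 to 1839 CPM and no Uty. The side without BP thus held both sexes, and label and sex were not fully separate. With MP left out, label and sex divided the tumours alike, so the genes called by label there could not be told apart from differences by sex.

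Cycling cells, left out above, numbered 585. Among macrophages with at least 3 UMIs of the 4 genes, cycling cells made up 23.5%, 10.3%, 41.8%, 11.7% and 24.8%, and among those with none 12.4%, 2.80%, 27.1%, 12.3% and 14.2%. The mean difference of 8.68 percentage points (SD 5.79, n = 5), positive in 4 of 5 tumours, was not called (exact permutation test of signs, two-sided, p = 0.125, with 0.0625 the smallest possible). After thinning to 3000 UMIs it was -2.17 points (SD 5.45, exact p = 0.4375), positive in 2 of 5. MP had the highest cycling share on both sides before and after thinning.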

How the data were processed

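Cells of 5 tumours were profiled by droplet single cell RNA-seq. The authors deposited whole-number UMI counts per gene and cell barcode (Cell Ranger 7.2.0, mm10, per the labels and methods), and these counts were used as deposited. Cells were kept with at least 750 genes and at most 25% mitochondrial UMIs. No doublets were removed; Scrublet in scanpy 1.11.5 (0.8% expected per 1000 cells) served as an alternative. UMIs were summed per tumour and macrophage side, giving 352859 to 2327743 UMIs a sum, and sums were tested with edgeR 4.0.16 (R 4.3.3; TMM scaling, filterByExpr, quasi-likelihood test, adjusted p under 0.05). Cells are not replicates; the tumour is. The tumour entered as a block because both sides of a comparison come from the same tumour, so the pairing needs no check of numbers. The 17 genes that define macrophages, their cycling and the side were left out of the tests. DESeq2 1.42.0 was an alternative, and exact permutation tests used scipy 1.17.1. Intervals on shares are exact binomial at 95% and cover counting error only. Genes in the files numbered 32286, of which 38 symbols had several identifiers.

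The members and gene lists were chosen with earlier results of these data known. Named genes were the 10 largest increases and decreases among called genes with the same sign in every tumour and at least 20 CPM on the higher side, at most 4 called genes per list, a list of genes named whether called or not, and the leading genes of the other comparisons; Ccl5, Ccl2 and Ccl7 in the main comparison and the genes of the promoters were named after their values were seen. A split by Lyve1 was intended, but each tumour had under 20 Lyve1 cells, and the Folr2 split replaced it after the values were seen. The main edgeR fits, but not the alternatives, were tried on simulated counts with known changes. The simulated tumours did not differ from each other, so the tumour block was not tried. Other cells were those with at most 1 of the 6 macrophage genes. Some genes that the rule names are not reported here.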

Additional observations from a re-analysis of the deposited data

How the results depend on the processing

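The comparison of Mrc1 Folr2 with gate-negative macrophages called 479 genes higher and 596 lower. DESeq2 called 253 and 356, no filter on low counts gave 826 higher, no TMM scaling 380 lower, and the fit with no replicate block, which ignores that both sides share a tumour, 46 and 42. Leaving out 1 tumour gave 282 to 433 higher and 386 to 448 lower. No alternative called a gene in the opposite direction. For the labels, where 0 genes were called, DESeq2 called 14 higher and 3 lower, a minimum of 10 counts in every sum 2 lower, no filter 155 and 164, and leaving out 1 tumour 0 to 26 and 0 to 48. For the dependence on the label, no filter gave 35 and 41, and leaving out 1 tumour 0 to 38 and 0 to 39. For the Folr2 split, with 46 higher and 22 lower, DESeq2 gave 24 and 7, no filter 172 and 92, no replicate block 1 and 0, cells matched for UMI number 26 and 11, and leaving out 1 tumour 7 to 77 and 1 to 30. The difference in share between labels turned from -8.65 to 2.11 points after thinning to 3000 UMIs, and leaving out 1 tumour gave -12.5 to -5.26 points. Sparc turned to 0.0839 with stromal and SyS markers at 0 UMIs, and Pecam1 to 0.0459 with cells thinned before they were placed. The cause of these changes was not tested. Of 1880 values of 94 named genes under the alternatives, 1662 kept their direction and side of the threshold, 175 missed the threshold (61 of them with no replicate block) and 37 newly passed it; 62 of the genes lost a call in some alternative, and 94 further values were missing because the gene fell below the filter there. Of 264 values of 23 genes named for the Folr2 split, 195 kept their side and 69 missed the threshold, and each of the 23 lost its call with no replicate block. The Lyve1 split and its alternatives were not run, since each tumour had under 20 Lyve1 cells. The lone tumour left on one side after leaving out MP or PD+MP is assumed to vary like the others, and genes below the filter could not be tested at this depth.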
